A study of Mus musculus with 4 samples.

Results

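The 10 genes described here encode the cohesin complex, the proteins that load it on chromosomes and release it, and CTCF: Smc1a, Smc3, Rad21, Stag1, Stag2, Nipbl, Wapl, Pds5a, Pds5b and Ctcf. They were chosen by symbol, each symbol matched 1 row, and they are 10 of the 31053 genes counted. RNA of single nuclei from mouse retina, the nerve tissue that turns light into signals, was counted by the 10x droplet method, which tags every nucleus with a barcode and every RNA molecule with an identifier (UMI), so that UMIs count molecules. Each of 4 libraries held the left eye of 1 numbered donor mouse: 2 at 2.5 months, labelled wild type, and 2 at 5 months, for which no genotype was given. No treatment was named for either age. The 2 replicates of an age carry the donor numbers 1 and 2, and values of the 4 libraries are given below in the order 2.5 months replicate 1, 2.5 months replicate 2, 5 months replicate 1 and 5 months replicate 2.

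Cohesin is a ring-shaped complex that holds DNA strands together. Its SMC1A, SMC3 and RAD21 proteins form the ring, and either STAG1 or STAG2 binds to RAD21 as a further subunit. In nuclei that no longer divide, such as those of retinal neurons, the complex is known for drawing out loops of chromatin: NIPBL drives its loading and movement, WAPL takes it off the DNA, PDS5A or PDS5B works with both release and stabilisation, and CTCF, a zinc finger protein bound to its own DNA motif, stops the moving complex and so sets the ends of loops and domain borders. Rods, the photoreceptors of dim light, have in the mouse an unusual nucleus whose heterochromatin lies in the centre.

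Promoter sequences of 4 of the genes are shown because the genes fall on both sides of the class pattern below: Ctcf and Wapl were higher in rods than in the other classes, and Pds5a and Pds5b were not. The windows run from 250 bases before to 50 bases after the gene start, are RefSeq sequence of build GRCm38.p6 on the strand of the gene, and lie at chr8:105636288-105636587 (plus strand), chr14:34673678-34673977 (plus), chr5:65698187-65698486 (minus) and chr5:150673577-150673876 (plus). Capitals mark matches, on either strand, to a CTCF core (CCNNNAGGNGG), an NRF1 core (GCGCANGCGC), a CCAAT box and an E2F core (TTTGGCGC).
Ctcf: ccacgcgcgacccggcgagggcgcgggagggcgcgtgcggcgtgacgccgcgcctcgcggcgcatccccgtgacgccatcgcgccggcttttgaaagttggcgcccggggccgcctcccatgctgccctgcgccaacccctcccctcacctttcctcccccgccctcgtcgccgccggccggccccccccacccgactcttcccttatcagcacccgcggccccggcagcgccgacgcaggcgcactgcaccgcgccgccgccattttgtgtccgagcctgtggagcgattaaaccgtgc
Wapl: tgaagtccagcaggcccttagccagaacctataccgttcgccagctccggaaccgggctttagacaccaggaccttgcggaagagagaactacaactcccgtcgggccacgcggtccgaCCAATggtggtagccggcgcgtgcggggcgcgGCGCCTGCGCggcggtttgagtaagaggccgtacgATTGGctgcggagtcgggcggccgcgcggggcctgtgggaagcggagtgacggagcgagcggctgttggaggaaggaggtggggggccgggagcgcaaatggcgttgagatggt
Pds5a: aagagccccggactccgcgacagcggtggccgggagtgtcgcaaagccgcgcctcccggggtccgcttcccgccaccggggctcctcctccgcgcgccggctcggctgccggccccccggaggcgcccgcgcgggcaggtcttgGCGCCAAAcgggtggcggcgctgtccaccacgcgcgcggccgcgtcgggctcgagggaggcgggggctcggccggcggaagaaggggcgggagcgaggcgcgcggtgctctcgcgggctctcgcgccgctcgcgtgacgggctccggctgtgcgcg
Pds5b: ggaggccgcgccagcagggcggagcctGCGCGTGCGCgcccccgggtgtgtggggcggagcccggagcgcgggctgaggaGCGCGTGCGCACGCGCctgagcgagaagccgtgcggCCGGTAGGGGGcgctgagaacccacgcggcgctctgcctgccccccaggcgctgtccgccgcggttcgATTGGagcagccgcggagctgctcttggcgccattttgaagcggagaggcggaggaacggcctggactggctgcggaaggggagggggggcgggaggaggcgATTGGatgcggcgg
All 4 were rich in G and C, from 67.0% in Wapl to 80.3% in Pds5a, against a median of 53% over 32544 RefSeq windows of the same length. The CTCF core was found in Pds5b, and in 9.39% of all windows. Pds5b also held 3 matches to the NRF1 core, of which the last 2 overlap on opposite strands, and Wapl held 1; 4.63% of all windows held at least 1. A CCAAT box, present in 37.4% of all windows, occurred at 2 places each in Wapl and Pds5b, and the E2F core, present in 0.519%, was found in Pds5a. The Ctcf window held none of the 4 motifs. Windows were matched for 7 of the 10 genes, and no motif search was made for Rad21, Stag2 and Nipbl. Of the windows not shown, Stag1 (73.7% G and C) held 2 matches to the NRF1 core and 1 CCAAT box. Smc1a (58.3%) held 1 CCAAT box, and Smc3 (65.0%) held 0 matches. The windows used for the shares were not matched for G and C, so the shares are no test of enrichment. A match is a description of letters and was not tested as a binding site.

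Nuclei were sorted into classes by marker genes, and each class name stands for nuclei like that cell type. The members were kept out of the genes used for clustering. Of 30839 nuclei kept, 27603 fell in 10 tested classes: 8951 rods, 5016 amacrine cells, 3283 Müller glia, 3207 cones, 2872 bipolar cells, 1733 retinal ganglion cells, 1653 fibroblasts, 322 horizontal cells, 284 melanocytes and 282 cells of the retinal pigment epithelium. The last 3 classes are small, down to 29 horizontal nuclei in a library, and the fibroblasts, melanocytes and pigment epithelium are not part of the neural retina. The libraries held 19608067 to 36320257 UMIs with medians of 1812.5 to 2899.5 per barcode. Pairs of libraries shared 0.0808% to 0.337% of barcodes. Depth differed between classes: the median nucleus held 1232 UMIs in rods, the lowest, and 8680 in ganglion cells, the highest. Summed, 10 rod marker genes were seen in every class, at 3.15% to 20.3% of the rod level outside the photoreceptors and at 34.7% to 41.8% in cones; free rod RNA, remaining doublets and the cells' own expression were not separated. The counting software changed with age (Cell Ranger 7.1.0 at 2.5 months, 4.0.0 at 5 months), and the 2 cannot be told apart.

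Levels are given as CPM, the UMIs of a gene per 1000000 UMIs of its class in that library. The members span 29.51 kb (Rad21, chr15:51962240-51991747 of GRCm38, GENCODE M21) to 361.6 kb (Stag1, chr9:100597798-100959375), and Smc1a and Stag2 lie on chromosome X. Set per kilobase of gene in rods, Wapl (4.55 ± 0.68 CPM per kb; SD, n = 4) and Nipbl (4.19 ± 0.47) were the highest and Pds5b (0.98 ± 0.17) the lowest. Stag1, with the second highest CPM, came to 1.68 ± 0.09 CPM per kb of gene, below Stag2 at 2.78 ± 0.18. Set per kilobase of exons the order differed, with Nipbl at 68.4 and Stag1 at 51.7 CPM per kb at the top and Pds5a at 8.77 at the bottom. The sources used here do not say whether reads in introns were counted, so neither length is the true base of the level. Ctcf overlaps Agrp and the noncoding Gm5914 on the opposite strand at its first bases, and both are rows of the files; how shared reads were assigned was not given either. The other 9 members overlap no other gene of the files.

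**Figure D1:**
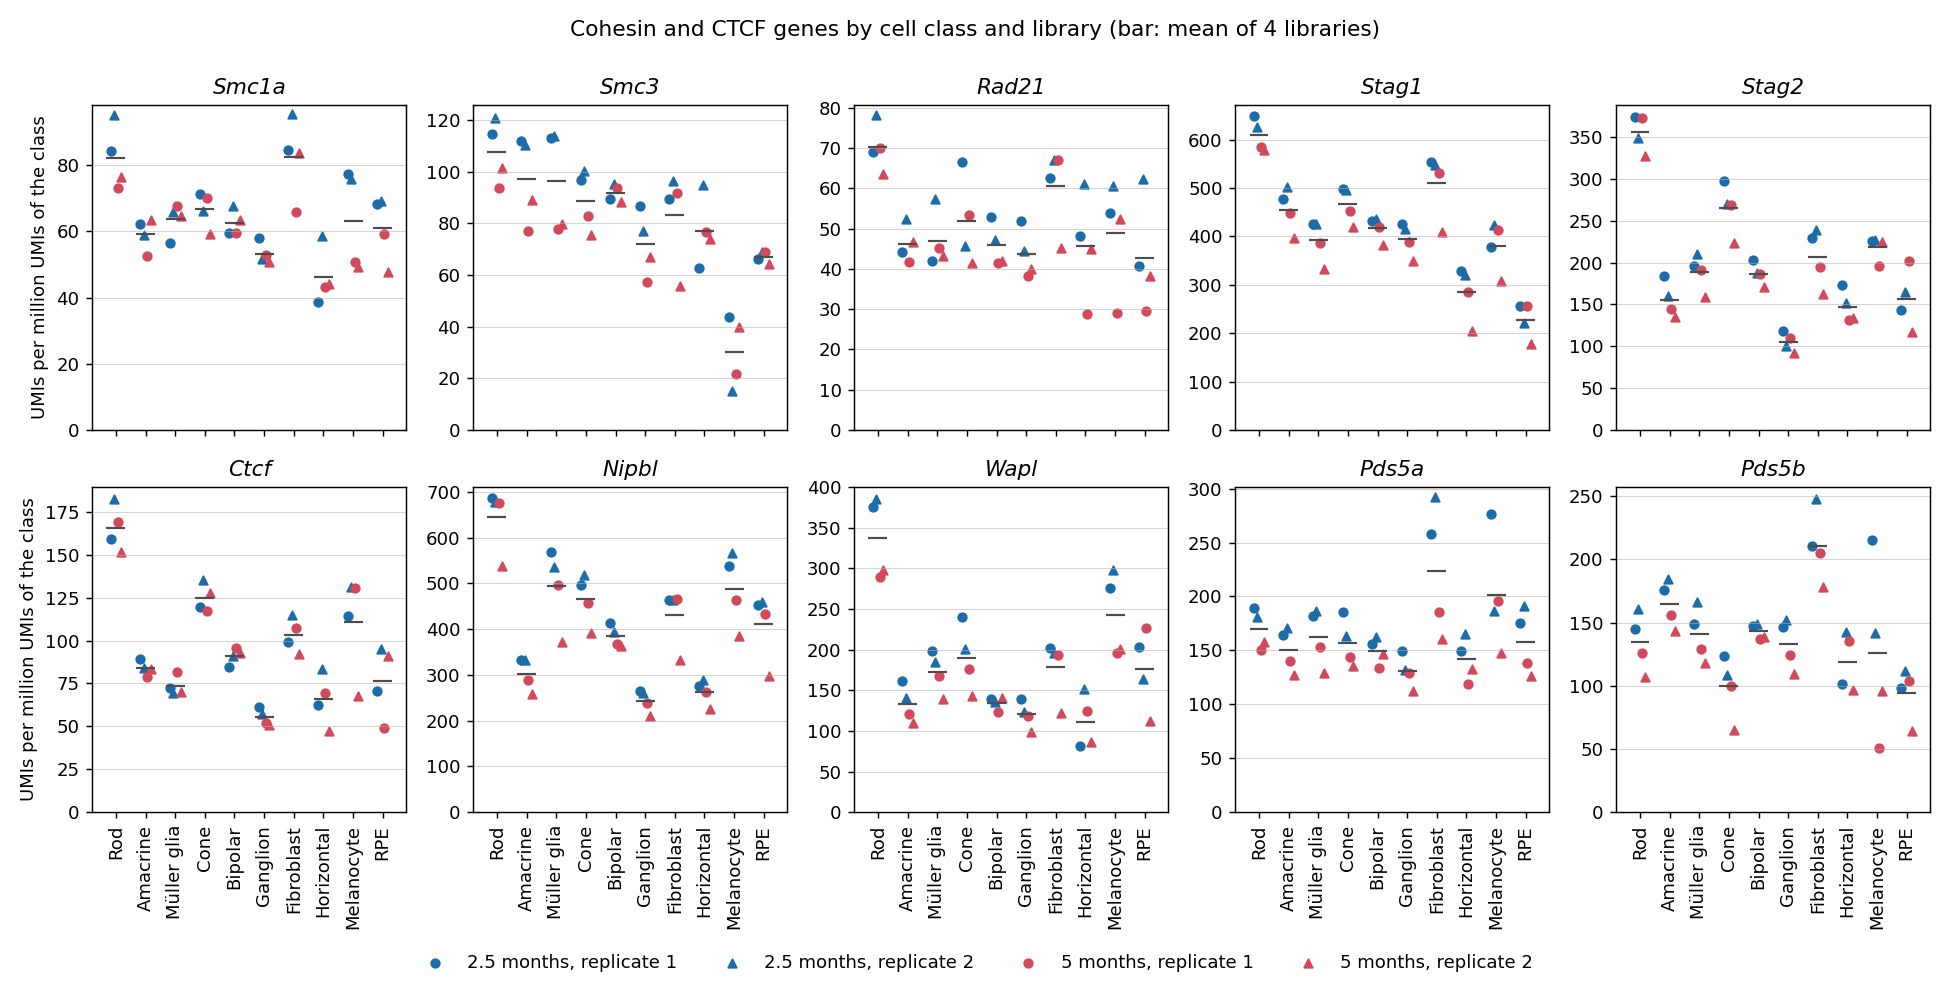
Level of each gene in CPM (vertical axes, each from 0) in 10 cell classes, with 1 point per library and a bar at the mean of 4 libraries. Rods sit above the other 9 classes in each of the 4 libraries for Rad21, Stag1, Stag2, Ctcf, Nipbl and Wapl. For Smc1a and Smc3 they do so over 8 of 9 classes, while the panels of Pds5a and Pds5b lack that step.

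The class contrasts asked in which cells the cohesin genes stood highest after edgeR's TMM scaling, which gives each class sum a scaling factor. Their fold changes therefore need not follow the order of the plain CPM. By mean CPM rods stood at the top for most of the 10 genes and ganglion cells near the bottom, whereas the Pds5 pair was highest in fibroblasts. Smc1a was also highest there, but hardly above rods (82.36 against 82.30 CPM). In rods 8 genes were called higher (all but Pds5a and Pds5b) and 1 lower (Pds5b), against 32.2% of all 14990 genes called higher and 30.2% called lower in the same contrast. In ganglion cells 5 genes were called lower (Stag2, Ctcf, Nipbl, Wapl and Pds5a) and 0 higher, against 27.8% and 34.1% of all genes. Among the members not called there, Stag1 had a positive log2 fold change (0.15, edgeR unadjusted p = 0.042). DESeq2 called 2 members higher in ganglion cells. Elsewhere the calls in either direction were 6 of 10 in amacrine cells (56.2% of all genes), 3 in Müller glia (52.5%), 5 in cones (59.2%), 2 in bipolar cells (46.1%), 2 in fibroblasts (51.3%), 2 in horizontal cells (35.4%), 3 in melanocytes (33.1%) and 3 in pigment epithelium (31.5%). Rods and ganglion cells had 62.4% and 61.9% of all genes called. Over the 10 classes 40 of 100 contrasts of members were called (40%), 22 higher and 18 lower, beside 49% of all genes (26.6% higher and 22.3% lower). Each contrast set 1 class against the mean of the other 9 in edgeR's quasi-likelihood test with library as a block, and a Benjamini-Hochberg adjusted p below 0.05 over all genes was a call. The median log2 fold change of the 10 genes was 0.42 in rods and -0.15 in ganglion cells, beside medians of -0.02 and 0.02 over all genes.

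The same nuclei counted per nucleus gave another order. The 10 genes together came to 2847, 2855, 2604 and 2399 CPM in the 4 libraries in rods and to 1502, 1414, 1309 and 1181 CPM in ganglion cells. Per 100 nuclei, however, rods held 362.7 UMIs of the 10 genes, the fewest of the 10 classes, and ganglion cells 1293, the most. Across the 10 classes the mean CPM was lower where nuclei were deeper, with Pearson's r between the mean CPM and the logarithm of the median UMIs per nucleus of -0.93 for Nipbl and Stag2, -0.90 for Ctcf and -0.17 for Pds5b; the classes share the 4 libraries and r is a description. The part of depth and of rod RNA in other nuclei in the rod and ganglion results was not tested. Among nuclei with at least 1000 UMIs rods had 8 genes called higher and ganglion cells 5 called lower. That cut did not match depth between the classes, so it cannot separate depth from class.

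**Figure D2:**
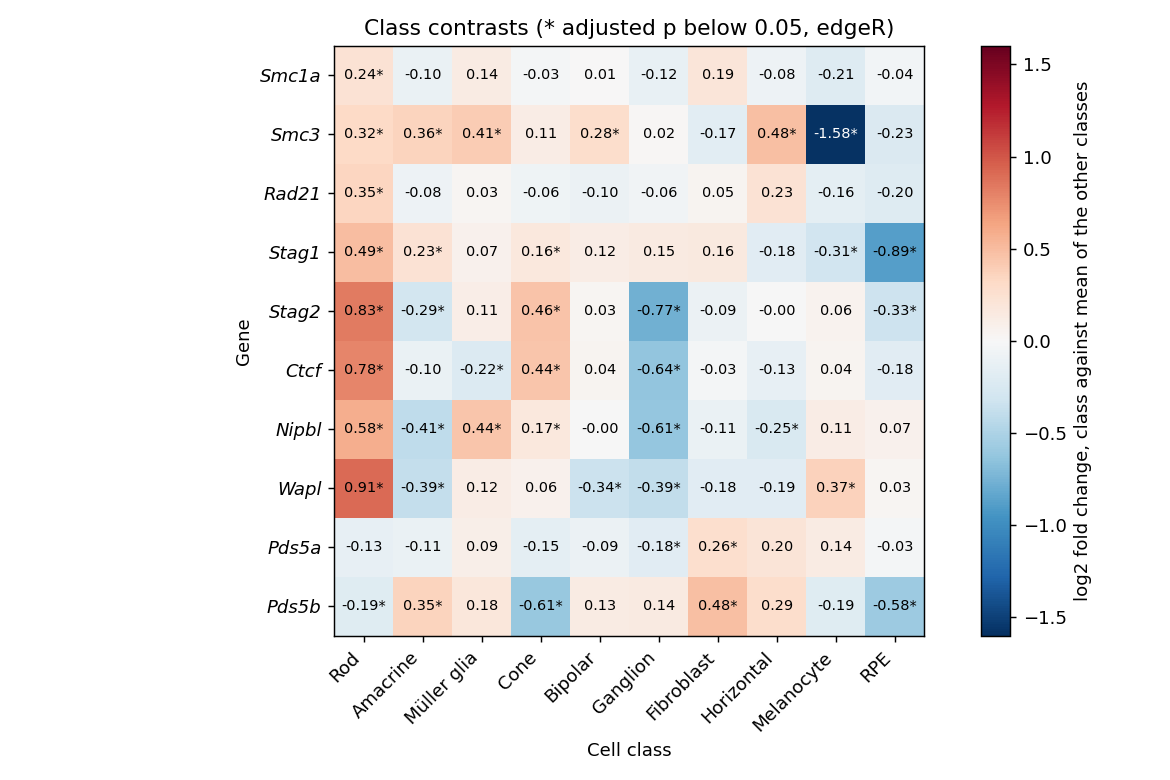
Log2 fold change of each gene (rows) in each class (columns) against the mean of the other classes, printed in each cell and shown by colour, with an asterisk for an adjusted p below 0.05 in edgeR. The rod column holds 8 positive calls, from 0.24 for Smc1a to 0.91 for Wapl, and the darkest blue cell is Smc3 in melanocytes at -1.58.

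Rad21, Pds5a and Smc1a differed least between classes, the highest class mean being 1.64, 1.71 and 1.78 times the lowest. Rad21, which encodes the subunit that closes the ring, stood at 69.1, 78.3, 70.0 and 63.6 CPM in rods, where it was called higher by a log2 fold change of 0.35 (SE 0.08), edgeR adjusted p = 3.19e-04. Rods were above each of the other 9 classes in all 4 libraries. Ranked by mean, Rad21 gave rods (70.2 ± 6.10), fibroblasts (60.5 ± 10.4), cones (51.8 ± 10.96), melanocytes (48.9 ± 13.8), Müller glia (46.9 ± 7.13), amacrine cells (46.3 ± 4.63), bipolar cells (45.9 ± 5.32), horizontal cells (45.8 ± 13.2), ganglion cells (43.7 ± 6.09) and pigment epithelium (42.7 ± 14.0) CPM, mean ± SD, n = 4. The single pair of neighbours ordered alike in all 4 libraries was rods over fibroblasts. No other class was called. Smc1a, which encodes one of the paired arms of the ring, had 84.3, 95.1, 73.2 and 76.5 CPM in rods and 84.6, 95.4, 65.8 and 83.6 in fibroblasts, groups that overlap. The order of class means for Smc1a, highest first, was fibroblasts (82.4 ± 12.3), rods (82.3 ± 9.73), cones (66.7 ± 5.56), Müller glia (63.7 ± 4.88), melanocytes (63.3 ± 15.4), bipolar cells (62.5 ± 3.92), pigment epithelium (61.1 ± 9.98), amacrine cells (59.3 ± 4.99), ganglion cells (53.3 ± 3.20) and horizontal cells (46.1 ± 8.73). The single pair of neighbours ordered alike in all 4 libraries was rods over cones. The rod contrast was 0.24 (SE 0.07) with an edgeR adjusted p of 0.00367, and it passed neither under another scaling (RLE) nor in DESeq2 nor without 2.5-month replicate 2.

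Smc3, the partner of Smc1a in the ring, was called in more classes. It was called higher in rods (115, 121, 93.6 and 102 CPM), amacrine cells (112, 111, 77.1 and 89.2) and Müller glia (113, 114, 78.0 and 80.0). Bipolar cells and horizontal cells were also called higher, and the log2 fold changes ran from 0.28 to 0.48. The largest, in horizontal cells, was not seen in the plain CPM (62.7, 94.9, 76.9 and 74.1). By mean CPM that class lay below cones and fibroblasts, which were not called. From high to low, mean Smc3 levels were rods (108 ± 12.4), amacrine cells (97.2 ± 16.9), Müller glia (96.3 ± 19.99), bipolar cells (91.7 ± 3.34), cones (88.8 ± 11.7), fibroblasts (83.3 ± 18.6), horizontal cells (77.1 ± 13.3), ganglion cells (72.0 ± 12.7), pigment epithelium (67.2 ± 2.24) and melanocytes (30.2 ± 13.9). Neighbours kept their order in all 4 libraries in 2 of 9 pairs, rods over amacrine cells and pigment epithelium over melanocytes. With fibroblasts, melanocytes and pigment epithelium left out none of these 5 contrasts was called. In melanocytes Smc3 stood at 43.8, 15.1, 21.7 and 40.0 CPM, below all other classes in all 4 libraries. The log2 fold change was -1.58 (SE 0.23) with an edgeR adjusted p of 2.39e-07, and the value rests on 32 UMIs in 284 nuclei. Smc1a in the same melanocytes gave 61 UMIs and Rad21 gave 49, at levels within the range of the other classes.

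Stag1 and Stag2, the alternative subunits bound to the ring, differed in their class pattern. Stag2 stood at 375, 349, 373 and 327 CPM in rods and 298, 269.9, 268 and 224 in cones, and rods exceeded cones in every library. From high to low, mean Stag2 levels were rods (356 ± 22.6), cones (265 ± 30.6), melanocytes (218 ± 15.2), fibroblasts (206 ± 34.8), Müller glia (189 ± 21.8), bipolar cells (187 ± 13.0), pigment epithelium (157 ± 35.9), amacrine cells (156 ± 21.3), horizontal cells (148 ± 19.6) and ganglion cells (105 ± 11.2). Of the 9 pairs of neighbours 4 were ordered alike in all 4 libraries, namely rods over cones, fibroblasts over Müller glia, amacrine cells over horizontal cells and horizontal cells over ganglion cells. In ganglion cells it stood at 118, 99.9, 109.8 and 92.4 CPM, below all 9 other classes in every library. The log2 fold change was 0.83 (SE 0.05) in rods with an edgeR adjusted p of 4.03e-18, and -0.77 (SE 0.06) in ganglion cells with 6.87e-15. Cones were also called higher (0.46, SE 0.06) and amacrine cells lower (-0.29, SE 0.06). The last 2 calls were kept in all alternatives. A lower call in the pigment epithelium (-0.33, SE 0.11) was lost under RLE scaling, without the filter on low counts, in DESeq2 and without 3 of the 4 libraries.

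Stag1 was also highest in rods, at 648, 625, 584 and 577 CPM, a log2 fold change of 0.49 (SE 0.07) and an edgeR adjusted p of 2.06e-08. It did not share the low level of Stag2 in ganglion cells, which stood at 425, 416, 387 and 348 CPM in the middle of the order, with a contrast of 0.15 (SE 0.07) that was not called. Its low class was the pigment epithelium, at 257, 220.3, 256 and 177 CPM, with a log2 fold change of -0.89 (SE 0.09) and an edgeR adjusted p of 7.47e-11. The pigment epithelium was below every other class in each of the 4 libraries. The order of class means for Stag1, highest first, was rods (609 ± 33.8), fibroblasts (511 ± 67.9), cones (466 ± 37.6), amacrine cells (455 ± 44.98), bipolar cells (417 ± 24.6), ganglion cells (394 ± 34.6), Müller glia (393 ± 44.2), melanocytes (381 ± 52.4), horizontal cells (285 ± 56.9) and pigment epithelium (227 ± 37.9). Neighbours kept their order in all 4 libraries in 5 of 9 pairs, rods over fibroblasts, amacrine cells over bipolar cells, bipolar cells over ganglion cells, melanocytes over horizontal cells and horizontal cells over pigment epithelium. Amacrine cells were called higher (0.23, SE 0.07), except with the neural classes alone, and melanocytes lower (-0.31, SE 0.09), except under RLE scaling. A higher call in cones (0.16, SE 0.07) was kept in 3 of 11 other settings.

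Nipbl and Wapl, the loader and the releaser of cohesin, had like class patterns. Nipbl stood at 687, 678, 675 and 537 CPM in rods, above the 9 other classes in every library, with a log2 fold change of 0.58 (SE 0.07) and an edgeR adjusted p of 3.15e-10. Müller glia, the supporting cells of the retina, came next with 569, 536, 496 and 373 CPM and were called higher by 0.44 (SE 0.07). The order of class means for Nipbl, highest first, was rods (644 ± 71.7), Müller glia (493 ± 85.9), melanocytes (488 ± 81.2), cones (466 ± 55.4), fibroblasts (431 ± 66.5), pigment epithelium (411 ± 76.2), bipolar cells (385 ± 23.2), amacrine cells (303 ± 36.5), horizontal cells (263 ± 27.3) and ganglion cells (244 ± 24.4). Of the 9 pairs of neighbours 5 were ordered alike in all 4 libraries, namely rods over Müller glia, fibroblasts over pigment epithelium, bipolar cells over amacrine cells, amacrine cells over horizontal cells and horizontal cells over ganglion cells. Amacrine and horizontal cells, both called lower (-0.41, SE 0.07 and -0.25, SE 0.09), and ganglion cells were at the other end. Ganglion cells had 264, 259.6, 239.6 and 211 CPM, below all other classes in every library, with a log2 fold change of -0.61 (SE 0.08) and an edgeR adjusted p of 1.39e-09. The horizontal call was lost without the filter and without either 2.5-month library, and a higher call in cones (0.17, SE 0.07) was kept in 6 of 11 other settings.

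Wapl had the steepest rod contrast of the 10 genes. It stood at 375, 385, 289 and 299 CPM in rods against 139.8, 123, 119 and 98.9 in ganglion cells, and both ages of rods lay above both ages of ganglion cells. The rod contrast was 0.91 (SE 0.07) with an edgeR adjusted p of 1.21e-16. From high to low, mean Wapl levels were rods (337 ± 50.2), melanocytes (242 ± 52.2), cones (190.1 ± 41.0), fibroblasts (178 ± 37.9), pigment epithelium (177 ± 50.02), Müller glia (172 ± 25.9), bipolar cells (135 ± 7.83), amacrine cells (133 ± 22.7), ganglion cells (120.2 ± 16.8) and horizontal cells (111 ± 32.9). Neighbours kept their order in all 4 libraries in 3 of 9 pairs, rods over melanocytes, melanocytes over cones and amacrine cells over ganglion cells. Melanocytes, with 276, 298, 196 and 200.2 CPM, were second in 3 of 4 libraries, but their call (0.37, SE 0.13) was lost without the filter on low counts and without 2.5-month replicate 1, 2.5-month replicate 2 or 5-month replicate 2. Wapl was called lower in amacrine, bipolar and ganglion cells, by log2 fold changes of -0.39, -0.34 and -0.39.

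Pds5a and Pds5b, which encode paralogous partners of both WAPL and the ring, did not follow the other members. Pds5b stood at 211, 247, 205 and 178 CPM in fibroblasts, the highest class in 3 of 4 libraries, and was called higher there by 0.48 (SE 0.08), edgeR adjusted p = 2.53e-06. Cones had 124, 109, 100.1 and 65.3 CPM and were called lower, with a log2 fold change of -0.61 (SE 0.09) and an edgeR adjusted p of 5.69e-08. The pigment epithelium had 98.3, 112, 103 and 64.4 CPM and was also called lower, at -0.58 (SE 0.15) and an edgeR adjusted p of 0.00237. The libraries of these last 2 classes overlap each other. The order of class means for Pds5b, highest first, was fibroblasts (210.5 ± 28.5), amacrine cells (165 ± 18.7), bipolar cells (143 ± 5.99), Müller glia (141 ± 21.4), rods (134 ± 23.1), ganglion cells (133 ± 19.8), melanocytes (126 ± 70.3), horizontal cells (119 ± 23.4), cones (99.5 ± 24.8) and pigment epithelium (94.5 ± 20.8). Neighbours kept their order in all 4 libraries in 3 of 9 pairs, fibroblasts over amacrine cells, amacrine cells over bipolar cells and Müller glia over rods. Amacrine cells were also called higher (0.35, SE 0.07), in all alternatives. In rods Pds5b was 1 of 2 members with a negative contrast; its call (-0.19, SE 0.08) was lost in 7 of 11 other settings, among them each single library left out. Pds5a varied little: its fibroblasts held 257, 293, 186 and 160.2 CPM and its ganglion cells 149.8, 132, 129 and 112, which do not overlap. Ranked by mean, Pds5a gave fibroblasts (224 ± 61.5), melanocytes (202 ± 53.8), rods (169.7 ± 18.4), Müller glia (163 ± 27.1), pigment epithelium (158 ± 30.3), cones (157 ± 22.3), amacrine cells (150.5 ± 20.2), bipolar cells (149.8 ± 12.3), horizontal cells (142 ± 19.9) and ganglion cells (131 ± 15.4). No pair of neighbours in that order was ordered alike in all 4 libraries. It was called higher in fibroblasts (0.26, SE 0.07), a call lost without 2.5-month replicate 2, and lower in ganglion cells (-0.18, SE 0.07), lost without either 2.5-month library and with the neural classes alone.

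Ctcf, the loop anchor, was highest in both photoreceptor classes, like Stag2. It stood at 159, 183, 169 and 152 CPM in rods and 119.8, 135, 117 and 128 in cones, and melanocytes exceeded cones in 1 library. Ranked by mean, Ctcf gave rods (166 ± 13.4), cones (125 ± 8.12), melanocytes (111 ± 29.8), fibroblasts (103 ± 9.89), bipolar cells (91.0 ± 4.53), amacrine cells (84.0 ± 4.32), pigment epithelium (76.5 ± 21.1), Müller glia (73.2 ± 5.61), horizontal cells (65.8 ± 15.1) and ganglion cells (55.4 ± 5.02). The single pair of neighbours ordered alike in all 4 libraries was rods over cones. Ganglion cells had 61.5, 57.4, 51.7 and 50.9 CPM. The contrast was 0.78 (SE 0.07) in rods with an edgeR adjusted p of 1.86e-14, 0.44 (SE 0.07) in cones with 1.10e-06 and -0.64 (SE 0.08) in ganglion cells with 3.83e-10. Cones also held the largest share of rod marker RNA among the other classes, as given above, and its part in the cone values was not tested. Müller glia were called lower (-0.22, SE 0.08), which was lost without 2.5-month replicate 2.

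All 11 calls with an absolute log2 fold change of at least 0.5 were kept in every alternative run for them: Stag2, Ctcf, Nipbl and Wapl in rods, Stag2, Ctcf and Nipbl in ganglion cells, Pds5b in cones and pigment epithelium, Stag1 in pigment epithelium and Smc3 in melanocytes. Of all 40 calls 23 were kept in every alternative. Rods came as 2 clusters, led by Pde6a (5399 nuclei) and by Esrrb (3552 nuclei), and their mix differed between libraries: the Pde6a cluster held 2627 of 3252 rods in 2.5-month replicate 1 but 744 of 1868 in 5-month replicate 2. Stag2, Ctcf, Nipbl and Wapl stood above the 9 other classes in all 4 libraries in both clusters taken alone. Stag1 and Smc3 did so in the Pde6a cluster but not in the Esrrb cluster, and Rad21 in neither, where it was above 8 and 7 classes.

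The members' patterns over the 40 class sums, as log2(CPM + 1) centred within each library, fell into a tighter and a looser part. Nipbl and Wapl (Pearson's r = 0.87), Stag2 and Nipbl (0.87), Stag2 and Ctcf (0.81) and Stag2 and Wapl (0.80) were the closest pairs. Smc3 and Pds5a were the farthest apart (-0.20). Among 8223 genes with a mean of at least 20 CPM, Stag2 was most like Pdc (0.94) and Gngt1 (0.94), both photoreceptor genes and Gngt1 one of the rod markers. Stag1 was most like Cntln and Ube2w (0.93 and 0.91), Nipbl like Cdk19 and Hnrnpc (0.93 and 0.91), Ctcf like Cox6b1 and Mrpl54 (0.92 and 0.90), and Wapl like Ssu72 and Zfp407 (0.90 and 0.89). Smc1a was most like Gm42418 and AY036118 (0.85 and 0.82), Smc3 like 4833422C13Rik and Rnf166 (0.85 and 0.83), Pds5a like Lrrk1 and Nid1 (both 0.82), Pds5b like Copg1 and Ror1 (both 0.80) and Rad21 like Rps28 and Mfap1b (both 0.76). The sums share libraries and depth, so these values describe the 10 classes only.

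Within classes the clusters also differed, and here the values are descriptions without a test. The bipolar cluster led by Gm20754, with Prkca and Trpm1 among its leading genes, held 239, 253, 238 and 197 CPM of Stag2. Over all libraries it had 239 CPM and the 7 other bipolar clusters had 153 to 187 CPM. In 5-month replicate 2, however, the clusters led by Hs3st4 (219 CPM) and Grik1 (213 CPM) were above it. The Gm20754 cluster held 105, 91.8, 94.8 and 101 CPM of Pds5b, against 137 to 187 CPM over all libraries in the others. Over all libraries the bipolar cluster with the most Stag2 thus had the least Pds5b. Among 13 amacrine clusters Pds5b ran from 107 CPM in the cluster led by Olfm3 to 248 in the one led by Thsd4, a ratio of 2.31. Its values were 105, 133, 103 and 91.7 CPM in the first and 259, 278, 243 and 205 in the second, which do not overlap. Stag1, Nipbl and Wapl varied less among amacrine clusters, with ratios of 1.28, 1.36 and 1.33 between the highest and lowest.

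**Figure D3:**
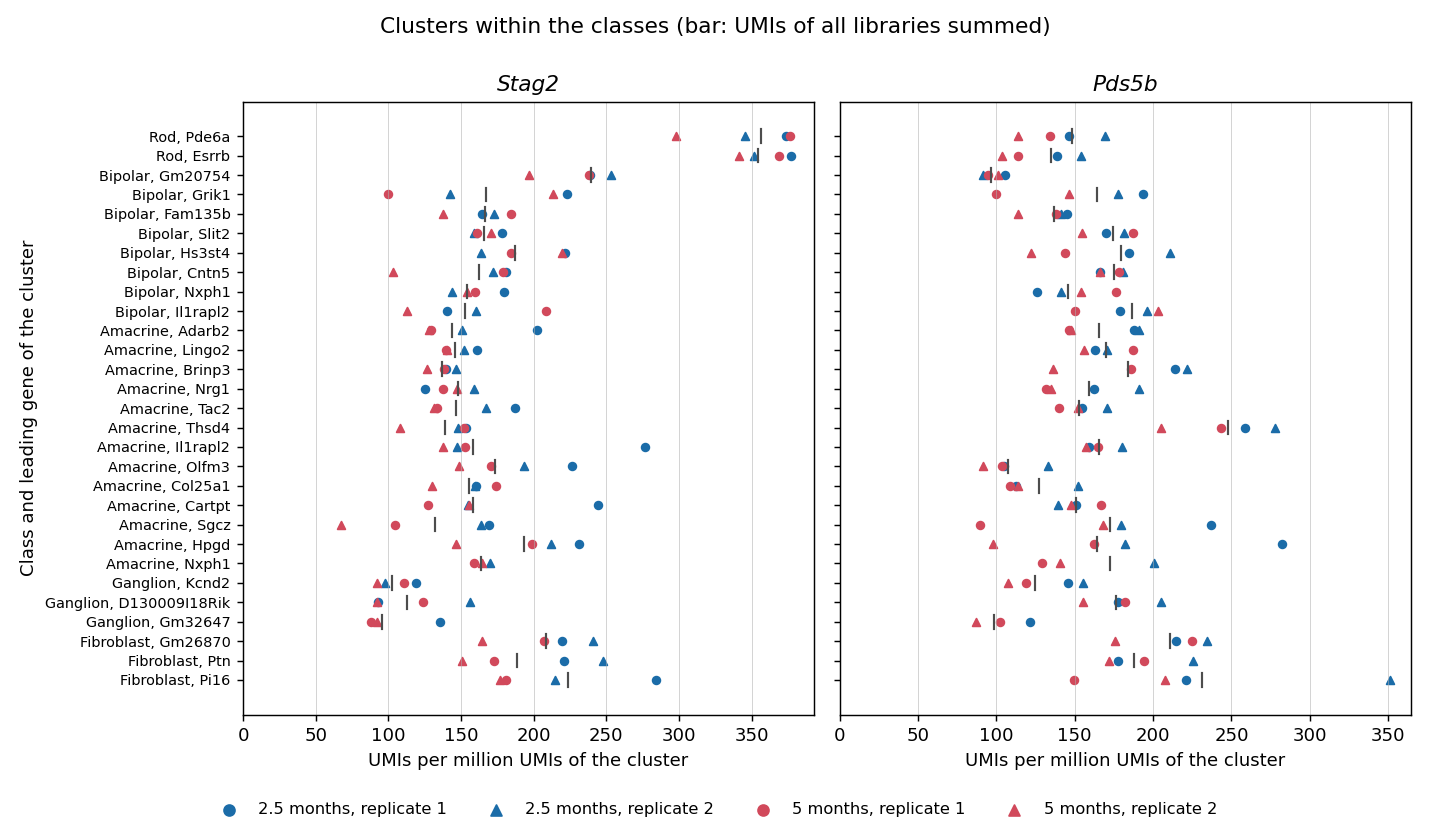
Level of Stag2 and Pds5b, in CPM within the cluster (horizontal axes from 0), in each cluster of the 5 classes that hold more than 1 cluster, labelled by class and leading gene. Points are libraries with at least 20 nuclei in the cluster and bars the level over all libraries. The bar of the bipolar cluster led by Gm20754 lies right of the other bipolar bars for Stag2 (239) and left of them for Pds5b (96.7).

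The balance within each paralogue pair does not depend on the total of a library. Of all Stag1 and Stag2 UMIs in rods, Stag1 made up 63.4, 64.2, 61.0 and 63.8% in the 4 libraries. Ganglion cells had 78.3, 80.6, 77.9 and 79.0% and amacrine cells 72.2, 75.8, 75.6 and 74.6%, all above every rod library. The means were 63.1% ± 1.44 in rods, 79.0% ± 1.2 in ganglion cells and 74.6% ± 1.67 in amacrine cells (SD, n = 4). Besides these 2 classes, Müller glia (67.5% ± 0.71), bipolar cells (69.1% ± 0.803) and fibroblasts (71.3% ± 1.49) were above rods in all 4 libraries, and 0 of 9 classes were below them in all 4. Cones (63.8% ± 1.38) had 3 of 4 libraries above rods. The pigment epithelium had the lowest mean, 59.4% ± 3.65, and few UMIs behind it: its 2.5-month replicate 1 had 64.2% of 187 UMIs, with an exact 95% binomial interval of 56.8% to 71.0%, which covers counting error only.

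For the Pds5 pair the direction was mixed. Pds5a made up 56.7, 53.0, 54.4 and 59.6% of Pds5a and Pds5b UMIs in rods and 48.3, 48.0, 47.2 and 47.1% in amacrine cells, which were lower in every library. Müller glia, bipolar cells and ganglion cells were likewise below rods in all 4 libraries. Cones, at 59.9, 60.1, 59.0 and 67.5%, and the pigment epithelium, at 64.1, 63.0, 57.1 and 66.2%, were above rods in all 4. With 4 libraries per class an exact 2-sided sign-flip permutation cannot go below p = 0.13, and that was its value for each of these 11 class comparisons; over all 18 comparisons the adjusted value was 0.205, so that none could pass. With doublets kept, 1 class rather than 2 was above rods for Pds5a.

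**Figure D4:**
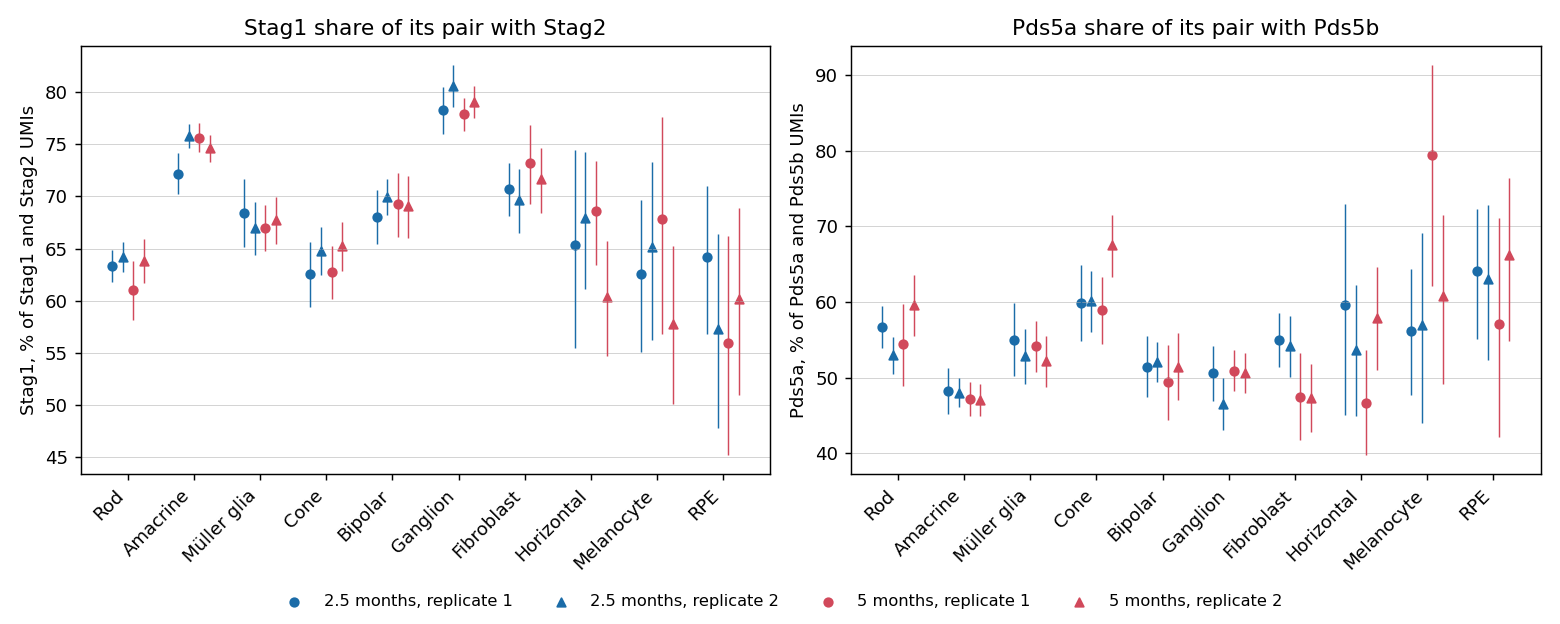
Share of Stag1 in the UMIs of Stag1 and Stag2 (left) and of Pds5a in those of Pds5a and Pds5b (right), in percent, by class, with 1 point per library and its exact 95% binomial interval as a line; the vertical axes do not start at 0. Ganglion cells lie at 77.9% to 80.6% on the left, above every rod library.

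Between the ages no member was called in any class, but most of the estimates lay below 0. Of 99 tests, with Smc3 in melanocytes below the filter on low counts, edgeR called 0, beside 0.0829% of all genes, and DESeq2 also called 0. At an unadjusted p under 0.05 there were 7 (7.07%), beside 7.05% of all genes. Log2 fold changes were below 0, that is lower at 5 months, in 90 of 99 tests (90.9%), beside 47.7% of all genes, with a median of -0.20 and class medians over all genes of 0.01 to 0.04. Both 5-month libraries lay below both 2.5-month libraries in 64 of 99 (64.6%), beside 21.5% of all genes, and 65 of 99 did not overlap in either direction, beside 38.4%. These counts are no sum of independent results, since the 10 classes come from the same 4 libraries. The counting software differed between the ages, as given above. A genotype was given at 2.5 months only (wild type), so a difference in genotype cannot be told apart from age either. The doublet caller marked 3 and 1 barcodes at 2.5 months and 672 and 784 at 5 months. With these kept 91 of 100 estimates were below 0 (median -0.21), and the part of doublets was not tested. Over all genes the fold change declined with gene length in every class. With that trend taken out 84 of 99 estimates were below 0 and the median was -0.17. The size of the median hung on single libraries. It was -0.21 without 2.5-month replicate 1, -0.18 without 2.5-month replicate 2, -0.30 without 5-month replicate 1 and -0.11 without 5-month replicate 2. The estimates below 0 numbered 88 of 99, 82 of 100, 91 of 100 and 73 of 99 in turn. Shares over all genes are not given for these alternative runs, so their counts describe the members only.

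In each class the member with the lowest p is described here and in the next paragraph. A gap between the ages is favoured by that choice and adds no evidence of its own. Over all genes and classes 38.4% did not overlap. Wapl had the lowest p of the members in both photoreceptor classes. In rods it stood at 375 and 385 CPM at 2.5 months and 289 and 299 at 5 months. The ages did not overlap, the log2 fold change was -0.36 (SE 0.14), and the edgeR adjusted p was 0.738. The same order held in each rod cluster alone. In cones it stood at 240.4 and 200.4 CPM at 2.5 months and 177 and 143 at 5 months, again without overlap, a log2 fold change of -0.46 (SE 0.20) with an edgeR adjusted p of 0.84. Smc3 had that place in amacrine cells (112 and 111 against 77.1 and 89.2 CPM), Müller glia (113 and 114 against 78.0 and 80.0 CPM) and ganglion cells (86.7 and 77.2 against 57.4 and 66.9 CPM). Its libraries did not overlap between the ages in these 3 classes. The log2 fold changes were -0.44 (SE 0.16), -0.47 (SE 0.19) and -0.37 (SE 0.18), with edgeR adjusted p of 0.543, 0.686 and 0.768.

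Outside these classes the member with the lowest p was Rad21 or a Pds5 gene. Pds5b in melanocytes showed the widest gap, 215 and 141 CPM at 2.5 months and 50.7 and 95.5 at 5 months from 130 UMIs in all, a log2 fold change of -1.10 (SE 0.36) with an edgeR adjusted p of 0.355. Pds5a in fibroblasts stood at 257 and 293 against 186 and 160.2 CPM (-0.63, SE 0.24, edgeR adjusted p = 0.549). In both cases every 2.5-month library was above every 5-month library, and neither passed. Pds5a in the pigment epithelium was at -0.32 (SE 0.26), Rad21 in bipolar cells at -0.27 (SE 0.20) and Rad21 in horizontal cells at -0.40 (SE 0.36), with edgeR adjusted p of 0.854, 0.832 and 0.9. By gene, Rad21, Stag1, Nipbl, Wapl and Pds5a were below 0 in all 10 classes, and Ctcf in 7. Ctcf, with a median of -0.08, and Smc1a, also -0.08, were nearest to 0, and Pds5a and Smc3 had the lowest medians, both -0.32. Standard errors of the 99 estimates ran from 0.14 to 0.49, so that a difference of the size of the median was not detectable with 2 libraries per age.

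**Figure D5:**
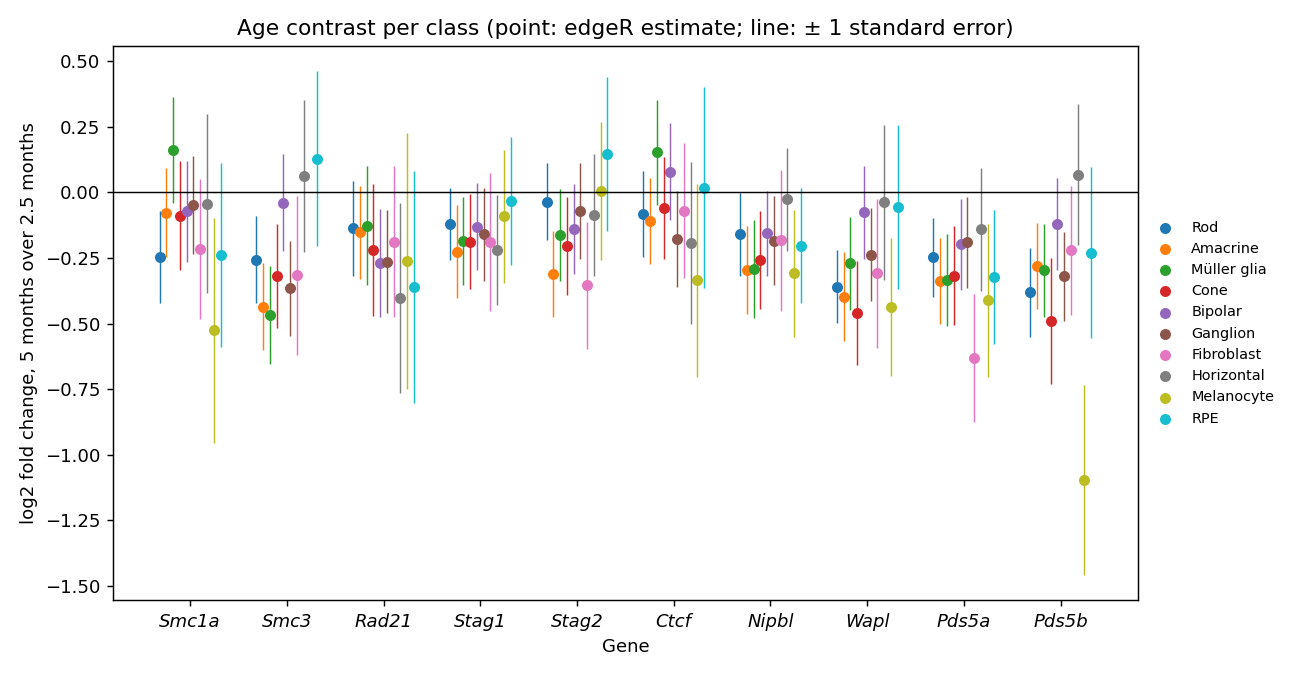
Log2 fold change of each gene at 5 months over 2.5 months (vertical axis, with a line at 0) in each class, with ± 1 standard error of the edgeR fit. Of 99 points 90 lie below 0, none was called, and the lowest is Pds5b in melanocytes at -1.10.

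Whether the age estimates differed between classes was tested for rods against amacrine cells, Müller glia and cones. None of 30 member tests was called in edgeR (lowest adjusted p = 0.556), beside 0.24% of all genes, and DESeq2 called none either. At an unadjusted p under 0.05 there was 1, Smc1a in Müller glia. Smc1a stood at 56.6, 65.8, 67.7 and 64.6 CPM in Müller glia and 84.3, 95.1, 73.2 and 76.5 in rods, so that the ages overlapped in the first and not in the second, and the difference of the age effects was 0.42 (SE 0.20) with an edgeR adjusted p of 0.556. For the other 29 tests the difference ran from -0.28 to 0.26 on the log2 scale.

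The rest of the chromosome-structure machinery, 42 listed genes, gives the setting. The list holds cohesin accessory and cell-cycle factors, germline cohesin genes, condensin, the SMC5/6 complex and other boundary factors. No test by age was called in 219 tests of 29 genes, beside 0.0829% of all genes. At an unadjusted p under 0.05 there were 15 of the 219, beside 7.05% of all genes. The median log2 fold change was -0.01, beside -0.20 for the 10 members. In the class contrasts 63 tests were higher and 51 lower among 260 tests of 26 genes (43.8%), beside 49% of all genes. Rods had 15 higher and 5 lower of these 26, beside 32.2% higher and 30.2% lower of all genes in the rod contrast. The SMC5/6 genes, which serve repair and replication, were called in 62.5% of their tests and the boundary genes in 35.6%.

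Called differences with an absolute log2 fold change of at least 1 were as follows. Smc4, a condensin subunit, stood at 58.9, 66.5, 43.1 and 49.7 CPM in rods, with a log2 fold change of 1.48 (SE 0.12) and an edgeR adjusted p of 1.36e-14, and was lower in amacrine (-1.04, SE 0.15) and horizontal cells (-1.92, SE 0.39). Ncapd3, a condensin II subunit, was higher in cones (1.15, SE 0.08) and lower in fibroblasts (-1.43, SE 0.13) and melanocytes (-1.28, SE 0.25). Ift80, highest in rods (80.7 CPM), lies within 2000 bases of Smc4 on the opposite strand without overlap. Vps26b, highest in cones (23.1 CPM), lies likewise beside Ncapd3. The part of these neighbours in the Smc4 and Ncapd3 values was not tested. The condensin genes Smc2 and Ncapg2 were higher in ganglion cells (1.14, SE 0.15 and 1.27, SE 0.20). Vezf1, a zinc finger factor, was higher in cones (1.35, SE 0.07). Ldb1, a looping cofactor, was lower in rods (-1.43, SE 0.12) and cones (-1.17, SE 0.13) and higher in Müller glia (1.11, SE 0.09) and melanocytes (1.40, SE 0.19); it overlaps Pprc1 on the opposite strand. Hdac8, the deacetylase of SMC3, was higher in melanocytes (1.44, SE 0.12), at 384, 485, 340 and 770 CPM in the 4 libraries. Nsmce2 was also higher in melanocytes (1.00, SE 0.10). Smc3 was lowest in the same class, and a link of Hdac8 to the Smc3 level was not tested.

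Of the germline partners Rec8 and Stag3 were called in different classes. Rec8, the meiotic counterpart of Rad21, stood at 18.2, 22.3, 25.6 and 26.7 CPM in amacrine cells and 14.0, 20.1, 16.3 and 18.5 in ganglion cells, with log2 fold changes of 3.50 (SE 0.19) and 3.16 (SE 0.21). Rods had 1.07, 2.15, 1.63 and 1.34 CPM, and neither class overlapped them. Stag3, the meiotic counterpart of Stag1 and Stag2, stood at 18.2, 17.97, 15.7 and 22.7 CPM in amacrine cells (2.92, SE 0.17) and 9.64, 9.25, 9.76 and 8.95 in rods (1.6, SE 0.24). In ganglion cells Stag3 had 2.40, 3.30, 3.03 and 3.17 CPM and was not called (0.18, SE 0.28). Smaller calls were Stag3 in cones (1.22, SE 0.28), Rec8 in Müller glia (1.15, SE 0.38), and Rec8 in the pigment epithelium (1.69, SE 0.61) from 10 UMIs. Rec8 had 0 UMIs in melanocytes, so its fitted fold changes depend on how that 0 enters the mean of the other classes. Chtf18, a clamp-loader subunit tied to cohesion, was higher in bipolar cells (4.91, SE 0.23) and lower in amacrine cells (-2.02, SE 0.56, 9 UMIs). However, it overlaps Gng13 on the opposite strand, which stood at a mean of 400.2 CPM in bipolar cells, its highest class. How reads of the overlap were assigned was not given, and the part of Gng13 RNA in the Chtf18 values was not tested.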

How the data were processed

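Nuclear RNA was counted in 4 mouse retina libraries, 2 per age, and each was taken as 1 replicate. Whole UMI counts were deposited by the authors as gene by barcode matrices, made with Cell Ranger 7.1.0 (2.5 months) and 4.0.0 (5 months) per the file headers and build mm10 per the submitters' processing notes; intron counting is not given in the sources used here. Kept barcodes had 300 or more genes and no more than 5% mitochondrial UMIs. Scrublet called 3 and 1 doublets at 2.5 months and 672 and 784 at 5 months, so doublets remain at 2.5 months. Nuclei were clustered (scanpy 1.11.5, leidenalg 0.10.2) without the members, and clusters were named from at least 3 markers. The 10 unnamed clusters (2918 nuclei), endothelium and muscle were not tested. Sums of each class in each library were tested in R 4.3.3 with edgeR 4.0.16 (TMM, low-count filter, quasi-likelihood, Benjamini-Hochberg over all genes); DESeq2 1.42.0 was an alternative. Scripts were tested on simulated counts. The text names the members, the 11 called class contrasts of at least 0.5 (log2), the lowest age p per class and other pathway genes called at 1 or more; smaller contrasts were named after their values were seen. The members and lists were chosen with earlier results of these data known.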

Additional observations from a re-analysis of the deposited data

Results flagged for a closer look

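Ctcf in bipolar cells was higher at 5 months without overlap: 84.9 and 90.9 CPM at 2.5 months lay below 95.7 and 92.5 CPM at 5 months, while in amacrine cells and ganglion cells both 5-month libraries lay below both 2.5-month libraries. In the other 7 classes the ages overlapped. The difference between these classes was not tested, and the bipolar estimate itself was not called.

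The members were also present in nuclei outside the tested classes, summed over libraries and with no test. In the 2918 nuclei of unnamed clusters Smc1a stood at 68.8 CPM, Smc3 at 91.8, Rad21 at 47.1, Stag1 at 423, Stag2 at 169, Ctcf at 80.3, Nipbl at 375, Wapl at 153, Pds5a at 166 and Pds5b at 148. In 154 endothelium-like nuclei the CPM were 94.9 for Smc1a, 82.2 for Smc3, 50.6 for Rad21, 595 for Stag1, 209 for Stag2, 129 for Ctcf, 514 for Nipbl, 215 for Wapl, 183 for Pds5a and 179 for Pds5b. In 164 nuclei like striated muscle they were 47.2 for Smc1a, 67.0 for Smc3, 79.4 for Rad21, 427 for Stag1, 253 for Stag2, 84.4 for Ctcf, 462 for Nipbl, 218 for Wapl, 114 for Pds5a and 112 for Pds5b. A count of 0 would have allowed up to 0.293, 6.33 and 7.45 CPM in these 3 sets.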

How the results depend on the processing

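Of 432 class values of single members under alternatives, 383 kept direction and call, 47 lost the call and 2 reversed: with the neural classes alone Smc3 in bipolar cells was -0.0025 (edgeR adjusted p = 0.988) and Stag1 in cones -0.0032 (0.984). Member calls by class numbered 31 to 49 over alternatives (30 to 38 with a library left out) against 40. The 1 lower call in rods became 2 under RLE scaling and in DESeq2, 0 without the filter, with doublets kept or among nuclei with at least 1000 UMIs, and 0 to 1 without single libraries. Higher calls in ganglion cells were 0, 2 in DESeq2, 2 with the top doublet scores removed, an alternative chosen after seeing the data, and 0 to 1 without single libraries. Classes below rods in the Stag1 share rose from 0 to 1 with the top doublet scores removed and were 0 to 1 without single libraries; classes above rods in the Pds5a share fell from 2 to 1 with doublets kept. The cause was not tested. Arms left with 1 library were assumed to vary like the others. By age and in the interaction every alternative run gave 0 member calls. With the replicate number as a block the age tests gave 0 calls, 92 of 99 estimates below 0, 1 at an unadjusted p under 0.05 and a lowest edgeR adjusted p of 0.478; libraries with the same number did not deviate together over genes (r of the 2 replicate differences -0.0951 to 0.0836), although replicate number went with sex at both ages. RLE scaling moved no class median by over 0.1. Shares over all genes are not given for the alternative runs, so their member counts have no background beside them. Depth limits the small classes: Smc3 rests on 32 UMIs in melanocytes.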

Other observations

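Smc1a and Stag2 lie on chromosome X, and the libraries of replicate 1 and replicate 2 differed in Xist at both ages (0.364 and 2298 CPM at 2.5 months, 1.61 and 2303 CPM at 5 months). The sum of 4 Y-linked genes had the opposite order, 640.3 and 1.52 CPM at 2.5 months and 496 and 3.95 CPM at 5 months, so that replicate 1 was male and replicate 2 female by these genes at both ages. Smc1a was higher in replicate 2 at both ages in 4 of 10 classes and lower at both in 3. Stag2 was higher in 1 and lower in 5 of 10 classes. Autosomal members had counts as uneven, in both directions: Stag1 was higher in 0 and lower in 6 classes, and Rad21 higher in 4 and lower in 1. Such counts were thus not particular to the X-linked members. Neither X-linked member followed Xist in all classes, and no test was made of these counts.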
